A study of Mus musculus with 6 samples.

Results

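The retinoid, vitamin D, PPAR and glucocorticoid receptors are ligand-activated transcription factors of the nuclear receptor family. The 10 genes described are Rara, Rarb, Rarg, Rxra, Rxrb, Vdr, Ppara, Ppard, Pparg and Nr3c1. They were chosen by symbol and are 10 of the 17025 genes in the deposited table. All 10 were found, and 8 of them passed the filter of the test, a mean of at least 1 FPKM (fragments scaled to gene length and to the library's total) over the 6 libraries. Ppara and Pparg did not pass it and are given as values.

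The libraries are RNA-seq of epidermal cells that were sorted for surface integrin α6, a basal layer protein, at postnatal day 0. By their labels, 3 came from conditional knockout animals (cKO, genotype K14Cre,Ash2lF/F) and 3 from control animals (genotype K14Cre,Ash2lF/+), with no treatment in either group. Both groups therefore carry K14Cre and at least 1 floxed Ash2l allele, and the controls are heterozygous for it. K14Cre places the recombinase under the promoter of keratin 14, so deletion is aimed at basal keratinocytes and their descendants, not at other cells of the skin such as melanocytes or fibroblasts. ASH2L is a core subunit of the complexes that methylate histone H3 at lysine 4, and the series asks what it does in differentiation of the epidermis, in the forming hair follicle and in Notch signalling.

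Depth was similar in all libraries, with 31578875 to 36027550 fragments each. The targeted gene went against the labels. Ash2l was at 30.9, 29.5 and 22.9 FPKM in the libraries labelled cKO 1, 2 and 3, against 12.4, 18.1 and 15.9 FPKM in those labelled control 1, 2 and 3. The log2 difference was 0.81 (SE 0.19, n = 3 per group, limma adjusted p = 0.0240), and the call was lost without cKO 1, cKO 2, control 1 or control 3 (adjusted p = 0.0828, 0.0808, 0.0564 and 0.0670). A gene total does not show whether a floxed exon was lost, and no library was moved; every direction below rests on these labels. The library labelled control 1 held 5 fragments of 4 Y-linked genes, against 3389 to 8930 in the other libraries, so the groups are not matched for sex. The labels do not say whether the 3 libraries of a group are different animals. The p-values therefore describe variation among these libraries, which may be technical.

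As background, retinoic acid receptors (RARs) and the vitamin D receptor bind DNA as heterodimers with a retinoid X receptor (RXR), and so do the PPARs, which sense fatty acids and their derivatives. The glucocorticoid receptor, encoded by Nr3c1, binds DNA mainly as a homodimer after release from a chaperone complex in the cytoplasm. In epidermis, retinoids and vitamin D act on keratinocyte growth and differentiation, PPARs on lipid metabolism and the permeability barrier, and glucocorticoids on barrier formation and inflammation. RARG and RXRA are known as the main retinoid receptors of keratinocytes.

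Of the 8 receptors tested, Rarg and Rxra were higher and Rarb was lower in the libraries labelled cKO, and the other 5 did not pass the test. Among all 11603 genes tested, 5.87% were called higher and 13.6% lower, 19.5% in all. Groups did not overlap for Rarg and Rxra, with the libraries labelled cKO above, or for Rarb and Vdr, with those labelled cKO below. Among all genes tested the libraries labelled cKO lay wholly above in 12.0% and wholly below in 30.9%. Each library averages many sorted cells, and fewer cells of a type cannot be told apart from less RNA per cell.

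**Figure D1:**
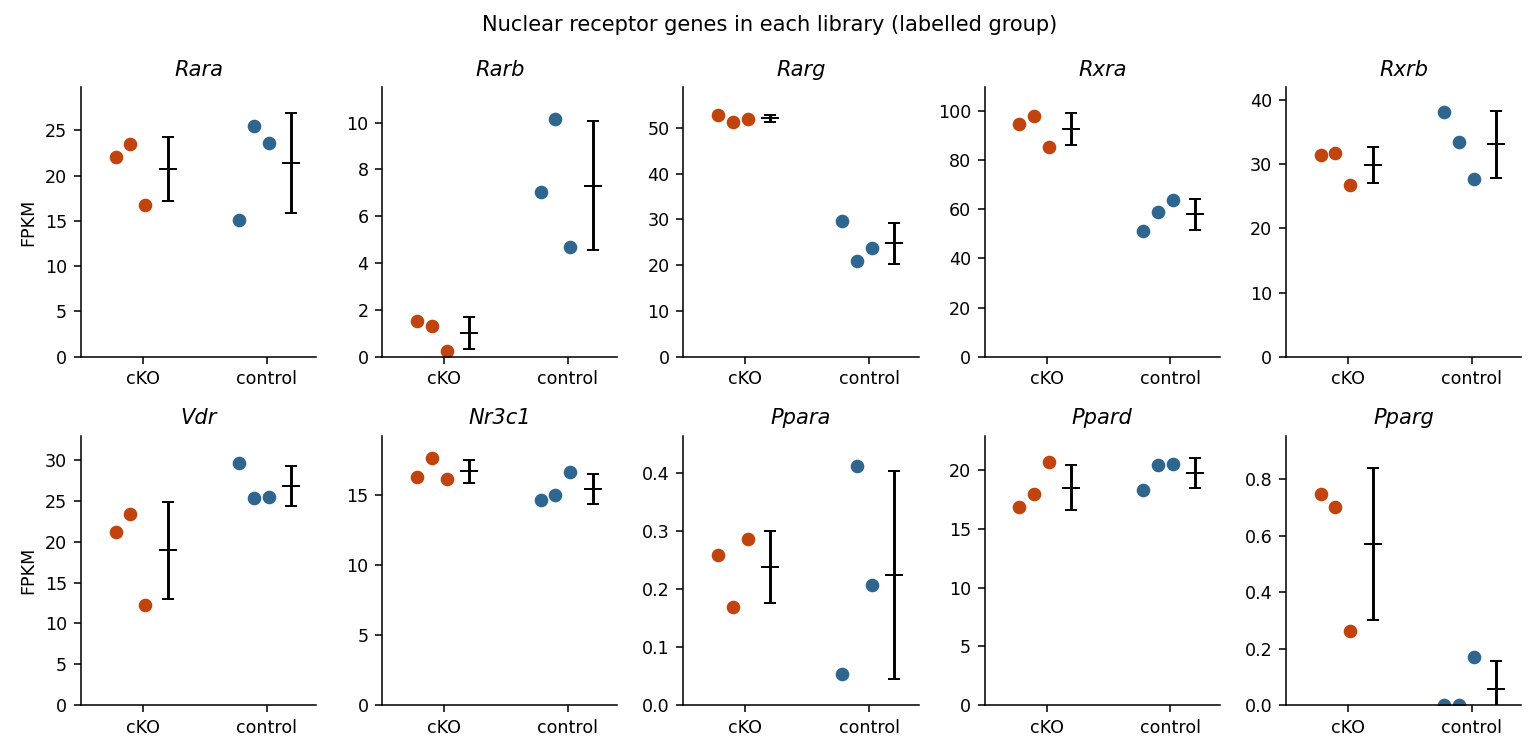
FPKM (linear axes from 0) of the 10 receptor genes in the 3 libraries labelled cKO (red) and the 3 labelled control (blue); points are libraries, and the black bar beside them is the mean ± SD (n = 3), cut at 0 for Pparg. Rarg sits at 51.4 to 52.9 FPKM in the libraries labelled cKO, against 20.9 to 29.7 FPKM in those labelled control, while Nr3c1, Ppard and Rara overlap.

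Rxra was the most abundant of these receptors in both groups. Since FPKM is scaled to length, levels can be set beside each other between genes. In the libraries labelled cKO the order of mean FPKM was Rxra (92.6), Rarg (52.1), Rxrb (29.9), Rara (20.8), Vdr (18.9), Ppard (18.5), Nr3c1 (16.7), Rarb (1.02), Pparg (0.571) and Ppara (0.239). There the ranges of Rxra, Rarg and Rxrb each stood apart from the next, those of Rara, Vdr and Ppard each overlapped the next, Nr3c1 stood apart from Rarb, and Rarb and Pparg each overlapped the next. In the libraries labelled control the order was Rxra (57.9), Rxrb (33.1), Vdr (26.8), Rarg (24.8), Rara (21.4), Ppard (19.7), Nr3c1 (15.4), Rarb (7.30), Ppara (0.225) and Pparg (0.0571). There Rxra stood apart from Rxrb, the ranges of Rxrb, Vdr, Rarg and Rara each overlapped the next, Ppard, Nr3c1 and Rarb each stood apart from the next, and Ppara overlapped Pparg. Rarg thus came directly after Rxra in the libraries labelled cKO, whereas in those labelled control Rxrb and Vdr had higher means and overlapping ranges.

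Rarg (Entrez gene 19411) encodes the retinoic acid receptor γ, the RAR subtype best known from skin. Rarg was at 52.9, 51.4 and 52.0 FPKM in the libraries labelled cKO 1, 2 and 3, against 29.7, 20.9 and 23.7 FPKM in those labelled control 1, 2 and 3. The 3 libraries labelled cKO lay within 2 FPKM of each other, and the highest control library was far below them. The mean was 52.1 ± 0.779 FPKM in the libraries labelled cKO and 24.8 ± 4.47 FPKM in those labelled control (SD, n = 3 each), a ratio of 2.10. On the log2(FPKM + 1) scale, which understates changes of genes with low values, Rarg rose by 1.06 (SE 0.15, 95% interval 0.70 to 1.42, limma adjusted p = 0.00450). A two-sided exact permutation test gave p = 0.1; no smaller value is possible with 3 libraries in each group. Rarg was called in all 12 alternatives tried (log2 differences of 0.95 to 1.30, adjusted p up to 0.0222).

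Rarb (Entrez gene 218772) encodes the retinoic acid receptor β, whose own gene is a textbook target of retinoic acid. Rarb was at 1.51, 1.30 and 0.243 FPKM in the libraries labelled cKO 1, 2 and 3, against 7.06, 10.2 and 4.68 FPKM in those labelled control 1, 2 and 3. Every library labelled cKO was below every control library, and cKO 3 was the lowest, at 30 fragments against 525 to 1150 in the control libraries. The mean was 1.02 ± 0.679 FPKM in the libraries labelled cKO and 7.30 ± 2.75 FPKM in those labelled control (SD, n = 3 each), 7.18-fold lower in the libraries labelled cKO. Rarb fell by 2.05 on the log2(FPKM + 1) scale (SE 0.36, 95% interval -2.87 to -1.23, limma adjusted p = 0.00828; exact permutation p = 0.1). It was called in all 12 alternatives (log2 differences of -2.94 to -1.73, adjusted p up to 0.0348). In the GENCODE M21 annotation of build GRCm38, exons of Rarb share 1793 bases with exons of Top2b, which encodes topoisomerase IIβ, on the opposite strand. The use of strand in counting is not given in the sources used here, so the 2 genes' reads cannot be told apart there. Top2b was at 96.0, 107 and 96.4 FPKM in the libraries labelled cKO, against 93.1, 83.7 and 84.0 FPKM in those labelled control (log2 difference 0.19, SE 0.12, limma adjusted p = 0.270). The part of the shared bases in the values of Rarb was not tested.

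The promoters of the 3 receptors called are shown so that the retinoic acid response element of Rarb can be read beside the promoters of Rarg and Rxra, which moved the other way. Each sequence is the 250 bases before the first of the gene's starts in the RefSeq table of build GRCm38.p6, on the strand of the gene; the expression table was made on another build. Rarb lies at chr14:16575477-16575726 (minus strand), Rarg at chr15:102257523-102257772 (minus strand) and Rxra at chr2:27676951-27677200 (plus strand). Capitals mark the response element in Rarb and the GC box GGGCGG, in either orientation, in Rarg and Rxra.
Rarb: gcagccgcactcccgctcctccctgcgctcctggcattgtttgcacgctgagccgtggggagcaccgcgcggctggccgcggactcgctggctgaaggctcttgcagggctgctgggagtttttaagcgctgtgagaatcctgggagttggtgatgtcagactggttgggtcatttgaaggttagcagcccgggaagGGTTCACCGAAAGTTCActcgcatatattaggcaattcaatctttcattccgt
Rarg: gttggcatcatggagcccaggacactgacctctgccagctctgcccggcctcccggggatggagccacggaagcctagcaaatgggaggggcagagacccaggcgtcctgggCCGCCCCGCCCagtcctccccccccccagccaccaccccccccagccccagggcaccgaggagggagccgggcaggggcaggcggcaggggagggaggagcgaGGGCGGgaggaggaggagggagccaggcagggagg
Rxra: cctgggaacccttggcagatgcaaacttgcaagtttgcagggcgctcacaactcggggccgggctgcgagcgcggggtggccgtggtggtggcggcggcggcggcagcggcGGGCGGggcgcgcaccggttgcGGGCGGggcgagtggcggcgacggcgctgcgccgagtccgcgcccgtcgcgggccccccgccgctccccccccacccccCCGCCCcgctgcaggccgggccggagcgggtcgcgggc

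The element in Rarb, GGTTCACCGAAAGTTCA, lies 53 to 37 bases before the start and consists of the half-sites GGTTCA and AGTTCA spaced by 5 bases, an arrangement that RAR and RXR are known to bind. Searched on both strands, this pair of half-sites with any 5 bases between them was found in 2 of 32851 promoter windows of this length (0.00609%). A looser pattern, NGNTCA repeated in the same direction with any 5 bases between, includes the first and was found in 255 windows (0.776%). Of the 9 receptors with an entry (17 windows), Rarb was the one that matched either pattern. The GC box occurred in 32.7% of all windows, 3 times each in the windows printed for Rarg and Rxra and not in that of Rarb. It does not set the called receptors apart, since windows of Rara, Vdr, Ppard, Rxrb, Ppara and Pparg also held it, up to 4 times. These windows held 74.4% G and C in Rarg, 81.2% in Rxra and 58.0% in Rarb, against a median of 52.4% over all windows. A match describes the letters and is not evidence of binding.

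Rara (Entrez gene 19401), which encodes the third RAR subtype and is expressed in most tissues, was at 22.1, 23.5 and 16.8 FPKM in the libraries labelled cKO 1, 2 and 3, against 15.0, 25.5 and 23.6 FPKM in those labelled control 1, 2 and 3. The groups overlapped over nearly their whole range. The log2 difference was -0.02 (SE 0.23, 95% interval -0.55 to 0.51, limma adjusted p = 0.962), so changes of up to about that size in either direction are not excluded by these libraries.

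Together the 3 RAR genes summed to 76.5, 76.1 and 69.0 FPKM in the libraries labelled cKO, against 51.8, 56.5 and 52.1 FPKM in those labelled control, with no overlap. Rarg made up 69.2, 67.5 and 75.4% of that sum in the libraries labelled cKO, against 57.3, 36.9 and 45.6% in those labelled control. Rarb made up 1.98, 1.70 and 0.352% in the libraries labelled cKO, against 13.6, 18.0 and 8.98% in those labelled control. These shares use the FPKM of Rarb as deposited, and the effect of the bases shared with Top2b on them was not tested. The share of Rara overlapped between the groups, at 24.3 to 30.8% in the libraries labelled cKO, against 29.1 to 45.4% in those labelled control. The log2 ratio of Rarg to Rara was 1.34 ± 0.26 in the libraries labelled cKO and 0.23 ± 0.66 in those labelled control (SD, n = 3 each; exact permutation p = 0.1, two-sided, the smallest possible). Shares of a sum are tied to each other, so the rise of one share and the fall of another are not separate results.

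Rxra (Entrez gene 20181) encodes the retinoid X receptor α, the common partner of RARs, the vitamin D receptor and PPARs. Its level was 94.8, 97.7 and 85.3 FPKM in the libraries labelled cKO 1, 2 and 3, against 51.0, 59.0 and 63.6 FPKM in those labelled control 1, 2 and 3. The groups did not overlap, and each value rested on 8610 to 17772 fragments. The mean was 92.6 ± 6.51 FPKM in the libraries labelled cKO and 57.9 ± 6.35 FPKM in those labelled control (SD, n = 3 each), a ratio of 1.60. Rxra rose by 0.67 on the log2(FPKM + 1) scale (SE 0.13, 95% interval 0.37 to 0.98, limma adjusted p = 0.0130; exact permutation p = 0.1). It was called in 11 of 12 alternatives and lost its call without the library labelled cKO 2 (0.63, adjusted p = 0.0545).

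Rxrb (Entrez gene 20182), which encodes the β subtype of the same partner, was at 31.4, 31.7 and 26.7 FPKM in the libraries labelled cKO, against 38.1, 33.5 and 27.7 FPKM in those labelled control. The groups overlapped, and the log2 difference was -0.13 (SE 0.16, 95% interval -0.51 to 0.24, limma adjusted p = 0.596). Of the RXR sum with Rxrg, the third subtype, Rxra made up 74.7, 75.1 and 76.1% in the libraries labelled cKO, against 56.0, 62.8 and 68.4% in those labelled control. The log2 ratio of Rxra to Rxrb was 1.63 ± 0.04 in the libraries labelled cKO and 0.81 ± 0.39 in those labelled control (SD, n = 3 each; exact permutation p = 0.1, two-sided). Rxrg itself was low, at 0.809, 0.658 and 0.0999 FPKM in the libraries labelled cKO, against 2.08, 1.40 and 1.78 FPKM in those labelled control (log2 difference -0.88, SE 0.27, limma adjusted p = 0.0550).

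**Figure D2:**
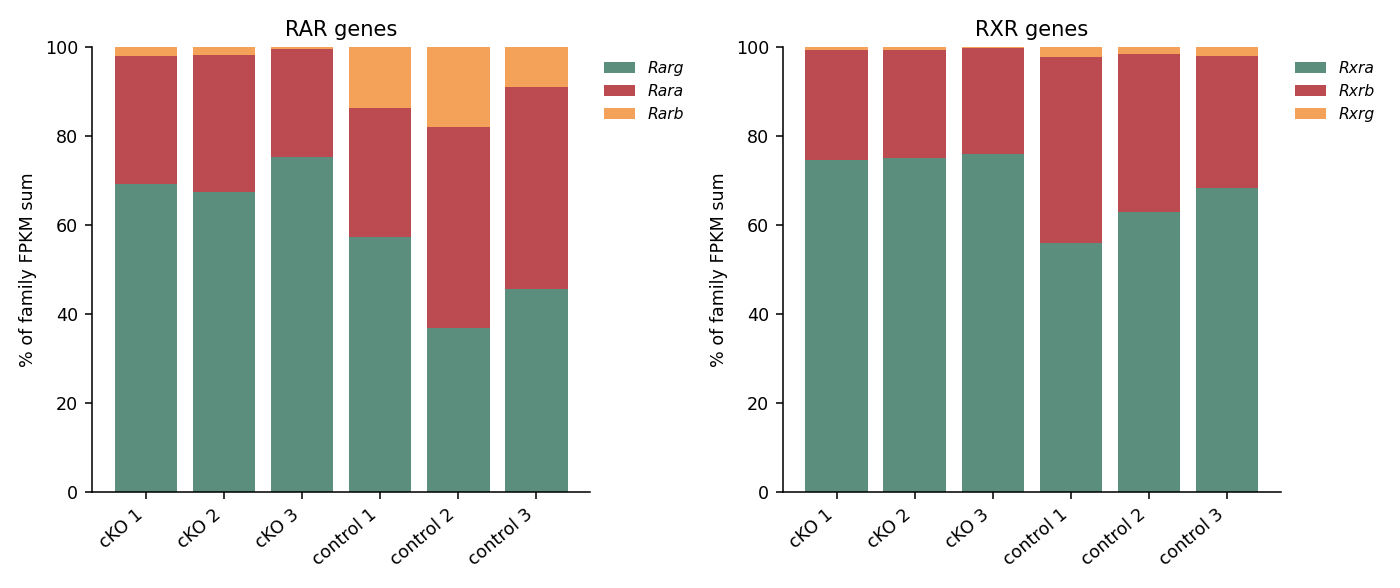
Share of each subtype in the summed FPKM of the RAR genes (left) and the RXR genes (right), in percent, with 1 stacked bar per library, the libraries labelled cKO left of those labelled control. Rarg makes up 67.5 to 75.4% of the RAR sum in the libraries labelled cKO, against 36.9 to 57.3% in those labelled control, and Rarb 0.352 to 1.98%, against 8.98 to 18.0%.

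Vdr (Entrez gene 22337) encodes the vitamin D receptor, which is needed for hair follicle cycling in mice. Vdr was at 21.2, 23.4 and 12.2 FPKM in the libraries labelled cKO 1, 2 and 3, against 29.6, 25.3 and 25.4 FPKM in those labelled control 1, 2 and 3. The groups did not overlap, but cKO 3 stood well below cKO 1 and 2. The log2 difference of -0.52 did not pass the test (SE 0.24, 95% interval -1.08 to 0.03, limma adjusted p = 0.163; exact permutation p = 0.1). It was not called in any of the 12 alternatives, and without the library labelled cKO 3 it was -0.25 (adjusted p = 0.233).

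Nr3c1 (Entrez gene 14815) encodes the glucocorticoid receptor. Nr3c1 was at 16.3, 17.6 and 16.2 FPKM in the libraries labelled cKO 1, 2 and 3, against 14.6, 15.0 and 16.7 FPKM in those labelled control 1, 2 and 3. The groups overlapped and spanned 14.6 to 17.6 FPKM in all. The log2 difference was 0.11 (SE 0.14, 95% interval -0.22 to 0.44, limma adjusted p = 0.626), and it was not called in any alternative.

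Of the PPARs, Ppard (Entrez gene 19015) was the one expressed at a level that passed the filter. It encodes PPARδ, also called PPARβ/δ, the subtype found throughout the epidermis. Ppard was at 16.9, 18.0 and 20.6 FPKM in the libraries labelled cKO, against 18.3, 20.4 and 20.5 FPKM in those labelled control. The groups overlapped (log2 difference -0.09, SE 0.15, 95% interval -0.43 to 0.25, limma adjusted p = 0.694). Ppara (Entrez gene 19013), the subtype best known from liver fatty acid oxidation, was at 0.259, 0.169 and 0.287 FPKM in the libraries labelled cKO, against 0.0546, 0.412 and 0.208 FPKM in those labelled control, with full overlap. Pparg (Entrez gene 19016), the regulator of adipocyte and sebocyte differentiation, was at 0.748, 0.704 and 0.263 FPKM (85, 81 and 32 fragments) in the libraries labelled cKO. In those labelled control 1 and 2 it had no fragment, where 3 fragments would be 0.0281 and 0.0268 FPKM, and in control 3 it was at 0.171 FPKM (19 fragments). The groups of Pparg did not overlap, and in a fit without the filter it was at 0.56 (limma adjusted p = 0.0610), short of the threshold. Of the markers of sebocytes and adipocytes, 6 of 7 were measured and summed to 36.9 to 56.4 FPKM in the libraries labelled cKO, against 23.3 to 50.9 FPKM in those labelled control. The adipocyte genes Plin1, Cidec and Fabp4 among them were at 0.473 FPKM or less in every library, and the sum came mostly from Mgst1. Cidea, also on the list, was at 7.44, 7.29 and 1.60 FPKM in the libraries labelled cKO, against 1.09, 1.25 and 3.62 FPKM in those labelled control (log2 difference 1.02, SE 0.51, limma adjusted p = 0.198), high in the same 2 libraries as Pparg. Scd3, of the same list, was at 0.703, 0.542 and 0.408 FPKM in the libraries labelled cKO, against 0.511, 0.314 and 1.73 FPKM in those labelled control. A list of fibroblast markers also summed higher in cKO 1 and 2 (447 and 416 FPKM) than in cKO 3 (149 FPKM).

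The median log2 difference of all genes tested was -0.17. Dividing by median-of-ratios size factors moved that median to 0.01 and the calls over all genes to 998 higher and 1054 lower, against 681 and 1576 without it. Relative to the median of all genes, Rarg lay at 1.23, Rxra at 0.84, Nr3c1 at 0.28, Vdr at -0.35 and Rarb at -1.88. The signs of 3 differences depended on the scaling: Rara, Ppard and Rxrb were at -0.02, -0.09 and -0.13 as deposited and at 0.17, 0.10 and 0.06 after that scaling.

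**Figure D3:**
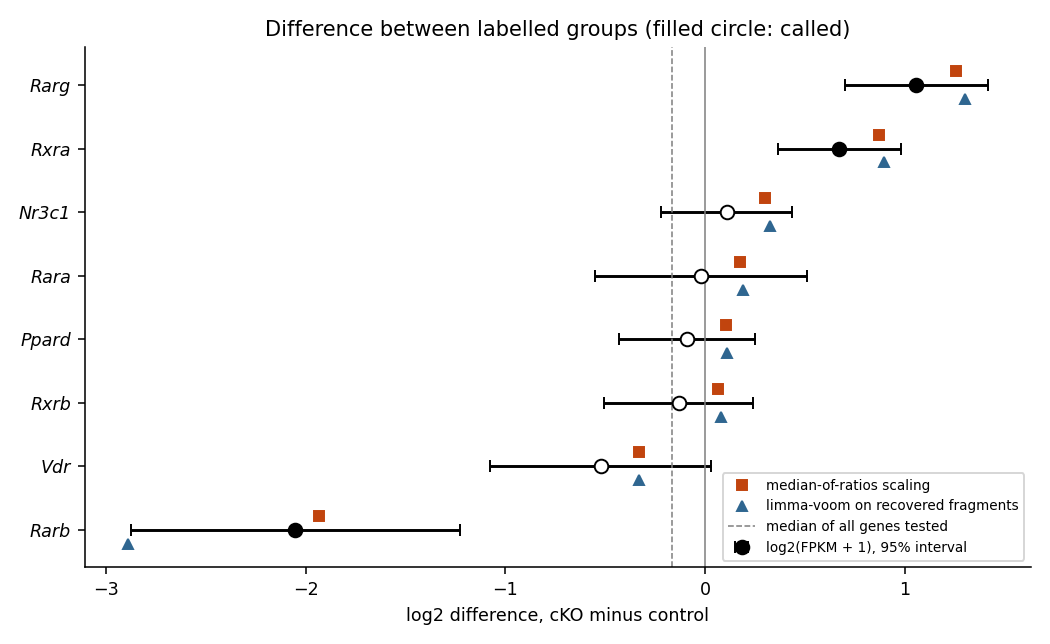
Log2 difference, cKO minus control, of the 8 receptors tested: circles are the fit on log2(FPKM + 1) with its 95% interval (filled where called), red squares the fit after median-of-ratios scaling, blue triangles limma-voom on recovered fragments; the dashed line is the median of all genes tested (-0.17). Rarg and Rxra lie right of 0 and Rarb left of it under all 3, while Rara, Ppard and Rxrb change side.

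Alongside these receptors, several lists of cell type markers also differed. Of 6 spinous keratinocyte markers, 5 were called higher, and their summed level was 34607 to 67942 FPKM in the libraries labelled cKO against 4475 to 6324 FPKM in those labelled control. The share of all FPKM held by the spinous keratins Krt1 and Krt10 was 7.97 to 16.2% in the libraries labelled cKO, against 0.880 to 1.28% in those labelled control. Of 6 granular keratinocyte markers, 2 were called higher (Flg and Tgm3), 0 lower and 4 not called. That list summed to 158 to 218 FPKM in the libraries labelled cKO, against 92.8 to 139 FPKM in those labelled control. Of 7 basal keratinocyte markers 1 was called higher and 1 lower, with a sum of 8002 to 10445 FPKM in the libraries labelled cKO, against 4878 to 8503 FPKM in those labelled control. That sum came mostly from Krt5, Krt14 and Krt15, of which Krt15 was the one called higher. Itgb4, the integrin β4 gene, was the one called lower (-1.70, SE 0.48, limma adjusted p = 0.0437). Itga6, which encodes the integrin used for the sort, was at 53.6, 53.0 and 19.7 FPKM in the libraries labelled cKO, against 162, 78.8 and 72.0 FPKM in those labelled control; the groups did not overlap, and it did not pass the test (limma adjusted p = 0.0710). All 7 melanocyte markers were called lower, with a sum of 165 to 354 FPKM in the libraries labelled cKO against 2771 to 3157 FPKM in those labelled control. The Schwann cell list had 1 of 3 tested markers lower, Sox10, which melanocytes also express, and summed to 7.78 to 19.7 FPKM in the libraries labelled cKO against 76.6 to 129 FPKM in those labelled control. Fibroblast markers overlapped, at 149 to 447 FPKM in the libraries labelled cKO, against 95.1 to 344 FPKM in those labelled control, with none of 7 called by limma (none higher by limma-voom, and 1 higher at an unadjusted p under 0.05). Their sum was lowest of the libraries labelled cKO in cKO 3. That library also had the lowest Rara, Rarb, Rxra, Rxrb, Vdr, Nr3c1 and Pparg of its group, and the highest Ppara and Ppard. Its share of FPKM in Krt1 and Krt10 was the highest of all, at 16.2%. Immune and endothelial lists summed to at most 6.33 FPKM in any library. The part of these cell types in the values of the receptors, or in the counts of the pathway lists, was not tested.

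By likeness of pattern, the genes closest to each called receptor were sought among 11418 tested genes, by the smallest root mean square difference of log2(FPKM + 1) values centred on each gene's mean over the 6 libraries. Nearest to Rarg were Spint2 (0.03), Acvr1b (0.06) and Smarcd2 (0.08), which encode a serine protease inhibitor, an activin receptor and a chromatin remodelling subunit. Spint2 was at 118, 113 and 120 FPKM in the libraries labelled cKO, against 67.8, 49.3 and 53.3 FPKM in those labelled control. Nearest to Rxra were Edaradd (0.05), Fam53c (0.05) and Pik3r2 (0.06), the first encoding the adaptor of the ectodysplasin receptor. Nearest to Rarb were Ngef (0.11), Dpysl3 (0.14) and Plpp1 (0.16). Ngef was at 1.51, 0.903 and 0.182 FPKM in the libraries labelled cKO, against 6.19, 8.17 and 4.46 FPKM in those labelled control. The 6 libraries fall into 2 groups, so such likeness is shared by many genes with a similar difference.

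Among 18 other nuclear receptors tested (of 24 listed), 1 was higher and 4 lower, with a median log2 difference of -0.39 against -0.17 for all genes. Beside the counts of this list and of those below, 5.87% of all genes tested were called higher and 13.6% lower. The 3 genes of the NR4A family, whose transcription is rapidly induced by many stimuli, were all lower. Nr4a1 was at 1.69, 2.44 and 0.553 FPKM in the libraries labelled cKO, against 23.0, 9.32 and 7.04 FPKM in those labelled control (-2.37, SE 0.45, limma adjusted p = 0.0116), with control 1 the highest. Nr4a1 kept its call in all 12 alternatives. The calls of Nr4a2, Nr4a3 and the clock gene Nr1d1 were less stable: leaving out any 1 of the 6 libraries ended the calls of Nr4a2 and Nr1d1, and Nr4a3 was called in 5 of 11 alternatives. The 4 lower became 1 without cKO 1, cKO 2, cKO 3, control 1 or control 3 and 2 without control 2.

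Of the coregulators, the proteins through which receptors activate or repress transcription, none of 21 tested was called in either direction (2 lower and none higher at an unadjusted p under 0.05, and none by limma-voom), and the median was -0.17, that of all genes. Without the library labelled control 1, 1 was called lower. Of 8 chaperones of steroid receptors, Hsp90aa1, which encodes the inducible HSP90α, was lower, at 36.8, 43.1 and 66.5 FPKM in the libraries labelled cKO, against 128, 99.7 and 118 FPKM in those labelled control (-1.26, SE 0.22, limma adjusted p = 0.00890). None was called higher by limma (2 at an unadjusted p under 0.05, and 1 by limma-voom), and the median of the list was 0.11. The 2 were Hsp90ab1 and Fkbp4 (0.48, SE 0.19, limma adjusted p = 0.114). Hsp90ab1, the more abundant HSP90 gene, was at 847, 887 and 1011 FPKM in the libraries labelled cKO. In those labelled control it was at 742, 697 and 713 FPKM (0.35, SE 0.11, limma adjusted p = 0.0688).

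Ligand enzymes and carriers had 1 lower and none higher of 10 tested by limma. At an unadjusted p under 0.05, 3 were lower and none higher, and by limma-voom 1 was lower and none higher. The median was -0.76 against -0.17 for all genes, with 7 below 0 and 3 above. Of those below 0, Rbp4 and Gc rested on the library labelled control 2. Rdh10 (-0.73, SE 0.27, limma adjusted p = 0.0981) and Aldh1a3 (-0.92, SE 0.38, limma adjusted p = 0.130) did not pass the test, though their groups did not overlap. The one called was Cubn, which encodes cubilin, an endocytic receptor for vitamin D-binding protein in kidney, at 1.82, 1.61 and 0.873 FPKM in the libraries labelled cKO, against 5.50, 6.48 and 3.87 FPKM in those labelled control (-1.37, SE 0.26, limma adjusted p = 0.0113). The fatty acid carrier gene Fabp5 was abundant and not called (0.64, SE 0.28, limma adjusted p = 0.147).

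Of 6 retinoic acid receptor targets tested, 2 were higher and none lower by limma (none lower at an unadjusted p under 0.05 or by limma-voom), with a median of 0.66. Dhrs3, a retinaldehyde reductase that limits retinoic acid formation, was at 14.7, 13.5 and 11.2 FPKM in the libraries labelled cKO, against 2.69, 5.20 and 8.07 FPKM in those labelled control (1.25, SE 0.32, limma adjusted p = 0.0325). Dhrs3 was not called without cKO 1, cKO 2 or control 2. Cyp26b1, the retinoic acid hydroxylase gene, varied within both groups, at 18.5, 14.4 and 4.63 FPKM in the libraries labelled cKO against 3.30, 7.64 and 20.0 FPKM in those labelled control (0.37, SE 0.63, limma adjusted p = 0.710). Rarb, itself a target of this class, moved the other way from Dhrs3.

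Of 6 vitamin D receptor targets tested, none was called by limma (none by limma-voom either, and 1 higher and 1 lower at an unadjusted p under 0.05), with a median of 0.16. Cyp24a1, the vitamin D hydroxylase gene most responsive to the receptor, was below the filter. Cyp24a1 was at 0.0180, 0.337 and 0 FPKM in the libraries labelled cKO, against 1.66, 0.0548 and 0.368 FPKM in those labelled control.

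PPAR targets had 5 members higher and 1 lower of 18 tested, with a median of 0.51, while Ppard itself did not pass the test. The 5 encode steps of mitochondrial fatty acid oxidation. Cpt1a, the gene of the carnitine palmitoyltransferase that admits fatty acids to mitochondria, was at 41.2, 45.6 and 27.4 FPKM in the libraries labelled cKO, against 12.5, 12.9 and 13.6 FPKM in those labelled control (1.45, SE 0.20, limma adjusted p = 0.00380). Acaa2, a thiolase gene, was at 138, 152 and 125 FPKM in the libraries labelled cKO, against 53.2, 69.8 and 63.6 FPKM in those labelled control (1.15, SE 0.14, limma adjusted p = 0.00268). Slc25a20 (0.99), Hadhb (0.85) and Acadvl (0.63) were also higher; the first and second of these, named after their values were seen, kept their calls in all 12 alternatives, as did Cpt1a and Acaa2. Acadvl lost its call without cKO 2, control 2 or control 3. The one lower was Pdk4, at 0.836, 0.510 and 0.225 FPKM in the libraries labelled cKO, against 1.43, 1.68 and 2.75 FPKM in those labelled control (-0.95, SE 0.27, limma adjusted p = 0.0458), and its call held in 1 of 11 alternatives. Classical targets such as Angptl4 (0.69, SE 0.50) and Plin2 (-0.10, SE 0.24) did not pass the test. Without the library labelled cKO 3 the higher calls were 8.

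Of 15 glucocorticoid receptor targets tested, 10 were lower and none higher by limma, with a median of -1.30, while Nr3c1 was at 0.11. None was higher at an unadjusted p under 0.05 or by limma-voom, and all 15 lay below 0. The median of all genes tested was itself below 0, at -0.17, and Sgk1 (-0.10) lay above that median. After median-of-ratios scaling the median of these targets was -1.12. Glul, which encodes glutamine synthetase, was at 66.9, 57.3 and 16.0 FPKM in the libraries labelled cKO, against 157, 172 and 170 FPKM in those labelled control (-2.04, SE 0.47, limma adjusted p = 0.0220). Klf15, a transcription factor gene, was at 0.718, 0.724 and 0.507 FPKM in the libraries labelled cKO, against 5.02, 6.20 and 5.16 FPKM in those labelled control (-1.97, SE 0.20, limma adjusted p = 0.00163). Nfkbia (-1.17) and Cebpd (-1.06) had the smallest differences among the genes called. Tsc22d3, which encodes the glucocorticoid-induced protein GILZ and is named here after its value was seen, was at 14.7, 9.07 and 6.22 FPKM in the libraries labelled cKO, against 34.7, 20.9 and 21.0 FPKM in those labelled control (-1.30, SE 0.32, limma adjusted p = 0.0276). Calls held in 6 of 12 alternatives for Tsc22d3, 7 for Nfkbia and 4 for Cebpd, and that of Tsc22d3 was lost without any 1 library other than cKO 1. Fkbp5, another classical target, did not pass the test (-0.49, SE 0.25, limma adjusted p = 0.208). Many of these genes respond to other stimuli as well, and Dusp1 (92.8 FPKM) and Ddit4 (326 FPKM) were highest in the library labelled control 1. Of the genes called, Tsc22d3, Per1, Errfi1, Mt2, Nfkbia and Zbtb16 were also highest there, and Glul, Klf9, Klf15 and Cebpd were not.

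The count of 10 depended on single libraries, although Klf15, Per1 and Mt2 were called in all 12 alternatives. It was 4 without cKO 2, 6 without cKO 3, 3 without control 1, 5 without control 2 and 3 without control 3. Glul lost its call without any 1 of the 3 control libraries (adjusted p up to 0.0757). With no filter on low values 3 were called lower, and after median-of-ratios scaling 7. In the plot of these targets by library the groups overlap for Nr3c1 and also for Sgk1, Ddit4, Fkbp5 and Dusp1, which were not called.

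**Figure D4:**
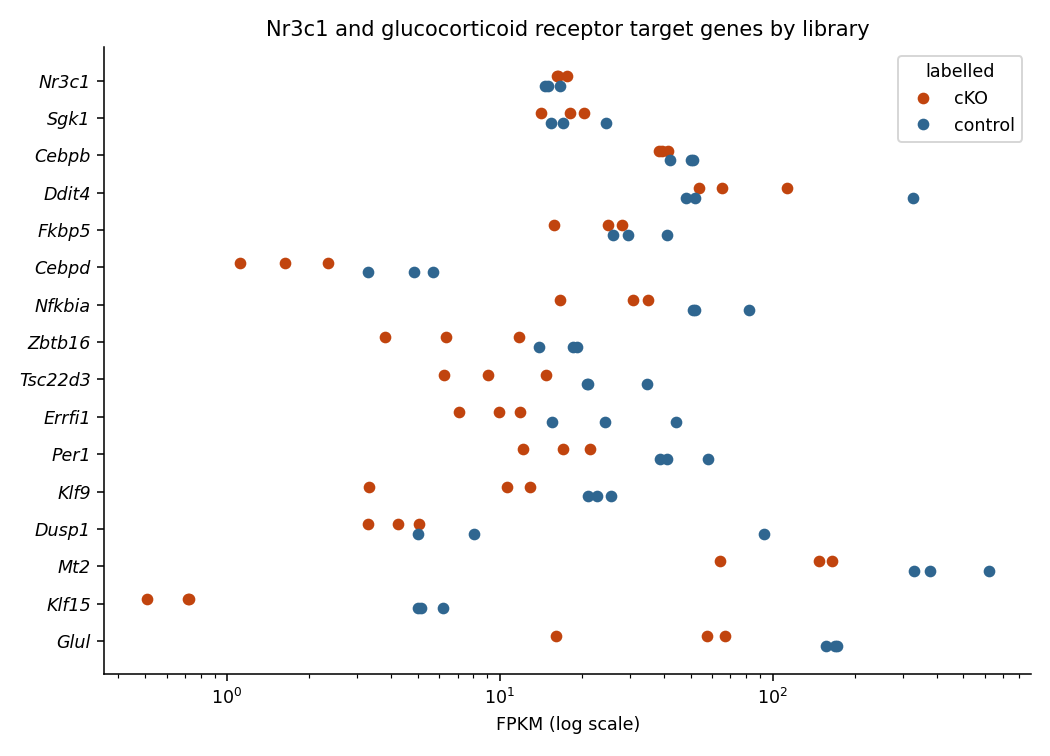
FPKM on a log scale of Nr3c1 (top) and the 15 glucocorticoid receptor targets tested, ordered by log2 difference, in the 3 libraries labelled cKO (red, upper dots of each row) and the 3 labelled control (blue, lower dots). The groups of Nr3c1 overlap at 14.6 to 17.6 FPKM, and those of Glul, Klf15, Mt2 and Per1 stand apart, the libraries labelled cKO to the left.

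**Figure D5:**
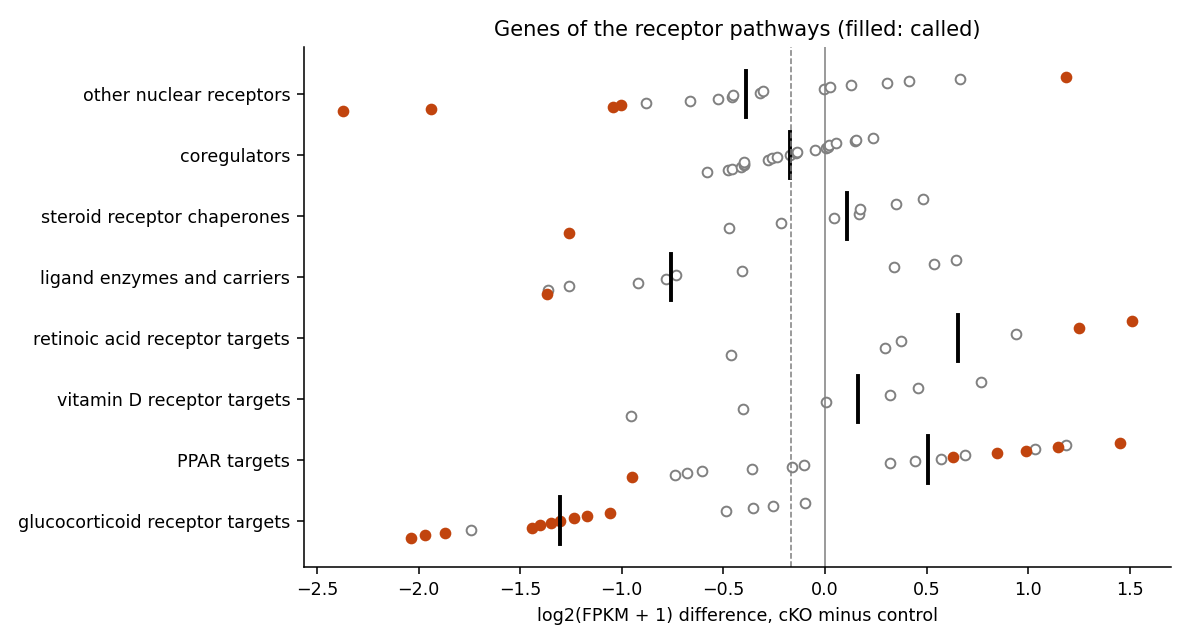
Log2(FPKM + 1) difference, cKO minus control, of each gene tested in the 8 pathway lists: filled circles were called, open circles were not, the black bar is the list's median and the dashed line the median of all genes tested (-0.17). Glucocorticoid receptor targets lie left of 0 (median -1.30), PPAR targets mostly right (median 0.51), and coregulators around the median of all genes.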

How the data were processed

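The authors deposited 1 table of FPKM values for 17025 genes, with 1 column per library. Tools listed in the submitters' processing notes are HISAT2, HTSeq and fastp, on build GRCm39; not given in the sources used here: versions, annotation, and whether counting used strand. A library total and gene length giving whole fragments in every library (tolerance 1e-06) were found for all 17025 genes. Such fragments cover counting error only.

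The 11603 genes averaging 1 FPKM or more were fitted with limma 3.58.1 (R 4.3.3) as log2(FPKM + 1) on group alone, with limma's trend option, and called at a Benjamini-Hochberg adjusted p under 0.05 over all genes tested. Exact permutation tests used scipy 1.17.1 and figures matplotlib 3.10.9. The fit was tested on simulated data in which few genes changed, as many up as down. Those data lacked the shift of the median seen here, so they do not check the calls under such a shift. Alternatives were a pseudocount of 0.1, no filter, median-of-ratios scaling, limma-voom with TMM scaling on recovered fragments, a replicate block, and libraries left out. Beside the receptors and Ash2l, the text names the 2 called genes highest and the 2 lowest in each pathway list and the 3 genes of most similar pattern; others were named after their values were seen. Some genes that this rule takes are not reported here. The members, lists and rules were chosen with earlier results of these data known. Promoters come from a RefSeq table of build GRCm38.p6.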

Additional observations from a re-analysis of the deposited data

How the results depend on the processing

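Rarg and Rarb kept their calls and directions under every alternative run, and Rxra under all but 1. Leaving out 1 library at a time gave 393 to 713 higher and 710 to 1453 lower calls over all genes (681 and 1576 with all 6), 1 to 2 receptors higher, and differences of 0.59 to 0.74 for Rxra, 0.67 to 0.94 for Ash2l -0.24 to 0.12 for Rara and -0.252 to -0.028 for Rxrb. It also gave 1 to 2 other nuclear receptors lower, 0 to 1 coregulators lower, 1 to 2 chaperones lower, 0 to 3 retinoic acid receptor targets higher, 0 to 1 vitamin D receptor targets higher and 0 to 1 lower, 4 to 8 PPAR targets higher and 0 to 1 lower, and 3 to 9 glucocorticoid receptor targets lower. A pseudocount of 0.1 left 0 PPAR targets lower. No filter left 1 other nuclear receptor, 0 PPAR targets and 3 glucocorticoid receptor targets lower and 0 retinoic acid receptor targets higher. Median-of-ratios scaling gave 2 other nuclear receptors and 0 PPAR targets lower, 1 chaperone higher, and Rara at 0.17, Rxrb at 0.064 and Ppard at 0.10. Limma-voom on recovered fragments gave 944 genes higher and 1020 lower, 2 other nuclear receptors higher and 1 lower, 1 chaperone higher, 0 PPAR targets lower, and Rara at 0.19, Rxrb at 0.078 and Ppard at 0.11. Without the libraries labelled control 1 and cKO 3 together, 1172 genes were higher and 2400 lower, with 2 other nuclear receptors, 2 chaperones, 2 vitamin D receptor targets and 10 PPAR targets higher, and 4 coregulators, 2 chaperones, 2 ligand genes and 3 PPAR targets lower, and Rxrb at 0.050. The causes of these shifts were not tested. The replicate numbers are shared between the groups, and the labels do not say whether they pair the libraries. Correlations of same-numbered libraries' deviations from their group means were -0.31, 0.08 and -0.26. For libraries with different numbers they were -0.20 to 0.29. With 3 libraries a group, these correlations cannot decide whether the libraries were paired. With the replicate number as a block, 432 genes were higher and 893 lower, 2 other nuclear receptors and 0 PPAR targets lower, 1 retinoic acid receptor target higher, and Ash2l stood at 0.81 with an adjusted p of 0.0613. With 3 libraries a group, low counts limit Ppara and Pparg, which had at most 142 fragments in any library. They averaged 0.232 and 0.314 FPKM over the 6 libraries, under the filter of 1 FPKM. Whether greater depth would change this was not tested.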

Other observations

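The library labelled control 2 stood apart in carriers of retinol and vitamin D that liver secretes. Rbp4 was at 12.8 FPKM and Gc at 18.4 FPKM in control 2; Rbp4 was listed at 0 in the other 5 libraries, and Gc was at most 0.0973 FPKM there. The cause was not tested. In that library Rarb was the highest of all, at 10.2 FPKM, and without it Rarb was at -1.81 (limma adjusted p = 0.0348).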
